A study of Homo sapiens with 4 samples.

Results

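The genes of the proteasome subunits were followed in HMLE cells, an immortalised line of human mammary epithelial cells, after depletion of hnRNPF, a splicing regulator that binds runs of G in RNA. All rows of the table with a symbol made of PSMA to PSMG and a number were taken, which gave 48 genes with 1 row each out of 60302 rows. PolyA-selected RNA was sequenced from 2 samples that stably expressed a lentiviral short hairpin RNA against HNRNPF (hnRNPF knockdown) and from 2 samples that expressed a non-specific hairpin RNA from the same kind of vector (control). The labels give neither the hairpin sequences, nor the time after infection, nor whether the samples of a group are separate infections or clones. The p-values below therefore measure the spread between these samples, which may be technical. Values are FPKM (fragments of a gene, corrected for its length and for the depth of the library), so levels of different genes can be compared on this scale. Errors are SDs with n = 2 per group.

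The proteasome is the protease that degrades proteins tagged with ubiquitin in the cytosol and nucleus. Its core particle is a barrel of stacked rings: outer alpha rings (PSMA genes) control entry, and inner beta rings (PSMB genes) carry the cutting sites. A regulatory particle of ATPases (PSMC genes) and further subunits (PSMD genes) recognises, unfolds and feeds in the substrate, and other caps (PSME genes) can take its place. In cells exposed to interferon gamma, and at a basal level in many epithelial cells, the catalytic subunits PSMB5, PSMB6 and PSMB7 are exchanged for the immunosubunits PSMB8, PSMB9 and PSMB10, which alter the peptides made for display on class I molecules.

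The FPKM columns summed to 391184 and 396135 in the knockdown samples and to 393977 and 392023 in the controls. For the depth, the most common low value of FPKM times length among single-exon genes was taken as 1 fragment. This put it near 80800000 and 84600000 fragments for the knockdown samples and 77200000 and 84600000 for the controls. The estimate is rough, since between 37.9% and 41.3% of the low values were then near whole numbers of fragments. HNRNPF stood at 18.7 and 16.6 FPKM in the knockdown samples, against 154 and 153 FPKM in the controls, and was the 1 gene of 13110 tested that passed an adjusted p of 0.05 (limma, log2 fold change -3.05, SE 0.0986, adjusted p = 0.0251). All 10 mammary epithelial markers were above the filter of 1 FPKM, led by KRT5 and KRT14, and summed to 9937 and 11121 FPKM in the knockdown samples and 7948 and 11702 FPKM in the controls. The leukocyte markers PTPRC and CD3E stayed at or under 0.0384 FPKM in every sample, and the endothelial marker CDH5 at or under 0.0242 FPKM. Of the 6 leukocyte markers 1 was above the filter, CD68, a lysosomal protein gene (11.2 and 11.3 FPKM in knockdown, 11.97 and 12.1 FPKM in the controls), and CD14 reached 1.43 FPKM in knockdown 1. Of the 4 fibroblast markers 2 were above the filter, and the list summed to 27.0 and 30.0 FPKM in the knockdown samples and 29.2 and 26.6 FPKM in the controls. They were COL1A1 (11.5 and 12.3 FPKM in knockdown, 10.4 and 9.24 FPKM in the controls) and THY1 (15.1 and 17.1 FPKM in knockdown, 17.97 and 17.0 FPKM in the controls).

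Of the 48 genes, 46 had a mean of at least 1 FPKM and were tested. The lowest single value among these 46 was 11.1 FPKM, so none of them entered through a high level in 1 group only. The exceptions were PSMA8, an alpha subunit of the testis, listed at 0 in all 4 samples, and PSMB11, a beta subunit of the thymus, at most 0.0113 FPKM in any sample. No proteasome subunit gene passed the adjusted threshold (limma, smallest adjusted p = 0.608), against 0.00763% of all tested genes. By limma's p before adjustment, 3 genes were under 0.05 and higher in knockdown (6.52% of the 46, against 3.06% of all tested genes) and 3 were lower (6.52%, against 3.02%). Both knockdown samples lay above both controls for 7 of the 46 (15.2%, against 17.5% of all tested genes) and below both controls for 9 (19.6%, against 17.1%), which is near the shares for all genes. Of the 5357 genes at least as abundant as PSMG4, the lowest tested member, 15.3% lay above both controls and 23.1% below. At an unadjusted p under 0.05 in limma, 2.93% of these 5357 were higher and 4.35% lower. The sum over the 48 genes was 2835 and 2888 FPKM in the knockdown samples and 2894 and 2882 FPKM in the controls, or 0.725% and 0.729% of all FPKM against 0.734% and 0.735%.

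The median log2 fold change of the 46 genes was -0.03, against 0.00 for all tested genes. For the 5357 genes at least as abundant as PSMG4, the lowest tested member, it was -0.02. Below 0 lay 65.2% of the 46, 49.8% of all tested genes and 55.6% of those 5357. As a group the members lay close to 0: 29 of 46 (63.0%) were within 0.1 of it, against 43.4% of all tested genes and 46.3% of those 5357. The cytosolic ribosomal protein genes, another set of subunits of an abundant complex, had 65.9% of 82 tested genes within that distance and a median of -0.05. The ubiquitin-conjugating enzymes, which act upstream of the proteasome, had 38.2% of 34 and a median of -0.11. The sets also differ in level. The median FPKM was 49.1 for the 46 members, 9.63 for all tested genes and 26.8 for those 5357. It was 479 for the ribosomal protein genes and 22.8 for the ubiquitin-conjugating enzymes. These shares are descriptions, and neither the differences between the sets nor the part of the level in them was tested.

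**Figure D1:**
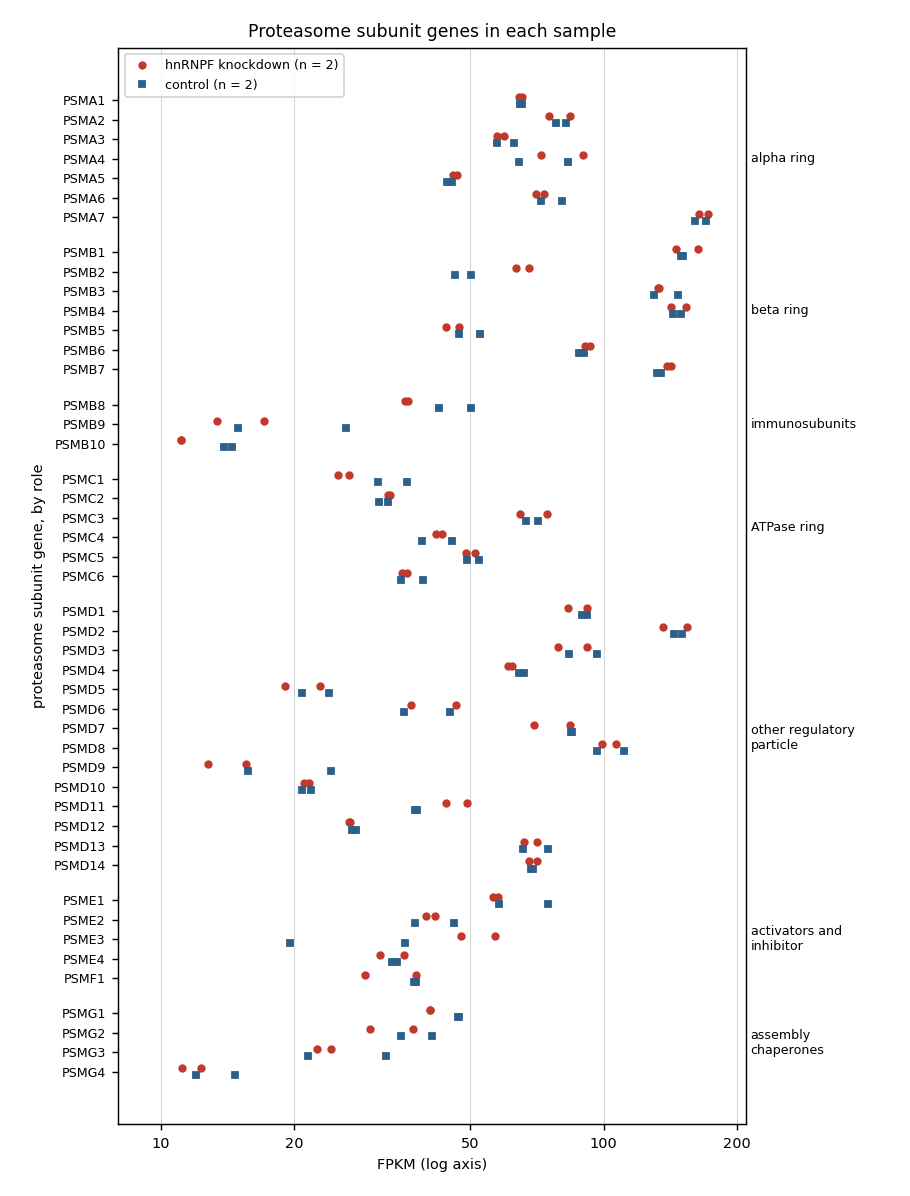
FPKM (log axis) of the 46 tested proteasome subunit genes in each sample, grouped by role, with hnRNPF knockdown samples as circles above the control samples as squares. Most genes have overlapping groups, while PSME3 and PSMB2 lie to the right in knockdown and PSMB8, PSMB10 and PSMC1 to the left.

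**Figure D2:**
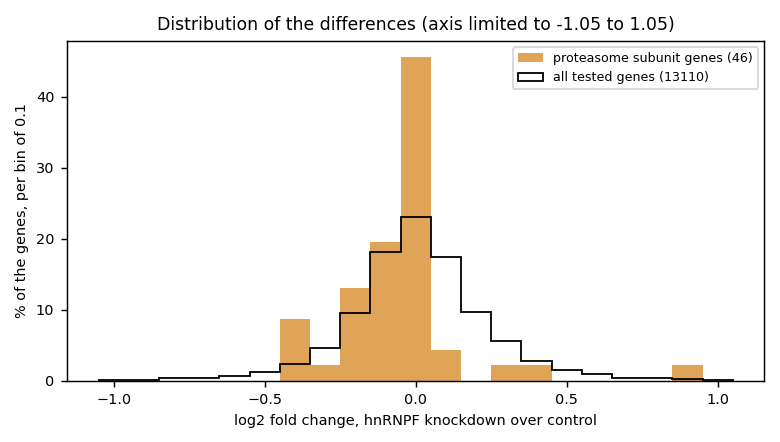
Share of genes per bin of 0.1 in log2 fold change (hnRNPF knockdown over control), for the 46 proteasome subunit genes (filled) and all 13110 tested genes (line); 0.549% of the tested genes lie beyond the plotted range. The proteasome genes gather in the bins around 0, with PSME3 alone near 0.95.

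Sequence upstream of the transcription start was read for the genes with the largest upward differences (PSME3 and PSMB2) and for the immunosubunits, so that the letters can be seen beside the values that follow. The RefSeq windows used (build GRCh38.p14) cover 42 of the 48 genes in 51 windows, and the 250 bases before each start were searched on both strands. Capitals mark matches to any of the patterns searched: TGANNNNGC, the core of the antioxidant response element bound by the NFE2L1 and NFE2L2 family, CCAAT, the CCAAT box, GAAANNGAA, a core of the interferon-stimulated response element, and TTCNNNGAA, the gamma-activated site bound by STAT dimers. Positions are counted back from the start. PSMB8 has 2 windows, 1 for each of its listed starts, and both are shown.
PSME3, chr17:42833147-42833396, plus strand: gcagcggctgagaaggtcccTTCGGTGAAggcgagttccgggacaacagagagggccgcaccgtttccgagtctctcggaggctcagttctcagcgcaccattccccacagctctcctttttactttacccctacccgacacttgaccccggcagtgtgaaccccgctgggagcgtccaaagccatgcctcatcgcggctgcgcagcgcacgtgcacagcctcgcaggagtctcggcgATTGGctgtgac
PSMB2, chr1:35641527-35641776, minus strand: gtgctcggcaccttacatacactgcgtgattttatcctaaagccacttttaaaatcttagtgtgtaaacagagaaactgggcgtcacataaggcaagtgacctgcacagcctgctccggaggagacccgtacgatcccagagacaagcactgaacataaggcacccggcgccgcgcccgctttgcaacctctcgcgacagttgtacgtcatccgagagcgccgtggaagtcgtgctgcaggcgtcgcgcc
PSMB8, start at the lower coordinate, chr6:32844048-32844297, minus strand: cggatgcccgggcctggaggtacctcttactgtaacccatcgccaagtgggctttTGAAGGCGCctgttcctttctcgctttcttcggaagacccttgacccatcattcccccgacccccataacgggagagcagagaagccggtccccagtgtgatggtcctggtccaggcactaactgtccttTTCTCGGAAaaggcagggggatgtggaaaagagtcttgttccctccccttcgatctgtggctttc
PSMB8, start at the higher coordinate, chr6:32844680-32844929, minus strand: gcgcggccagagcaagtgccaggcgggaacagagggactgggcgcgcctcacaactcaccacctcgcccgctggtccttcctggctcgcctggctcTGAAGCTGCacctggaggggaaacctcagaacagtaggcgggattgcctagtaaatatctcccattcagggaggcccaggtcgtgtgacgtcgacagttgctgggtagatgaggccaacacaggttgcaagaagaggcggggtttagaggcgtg
PSMB9, chr6:32853942-32854191, plus strand: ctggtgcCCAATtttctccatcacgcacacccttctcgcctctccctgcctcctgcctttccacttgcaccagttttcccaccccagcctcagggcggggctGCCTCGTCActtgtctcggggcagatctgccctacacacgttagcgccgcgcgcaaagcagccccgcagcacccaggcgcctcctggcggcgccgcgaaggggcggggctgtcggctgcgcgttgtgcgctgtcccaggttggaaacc
PSMB10, chr16:67936851-67937100, minus strand: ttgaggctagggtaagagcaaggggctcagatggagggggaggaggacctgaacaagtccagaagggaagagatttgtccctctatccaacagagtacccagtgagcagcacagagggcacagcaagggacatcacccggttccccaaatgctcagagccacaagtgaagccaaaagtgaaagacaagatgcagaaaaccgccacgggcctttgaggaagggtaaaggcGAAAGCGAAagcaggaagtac

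The antioxidant response core was present in 29 of the 51 windows (56.9%), against 35.2% of all 35116 windows. The CCAAT box was in 37.3% of the members' windows, against 32.0% of all, the interferon-stimulated core in 9.8%, against 6.88%, and the gamma-activated site in 13.7%, against 6.57%. Among the windows shown, PSMB2 held none of these letters, both windows of PSMB8 and that of PSMB9 held an antioxidant response core, and PSMB10 held an interferon-stimulated core at positions -21 to -13. The lower PSMB8 window also held a gamma-activated site at -65 to -57. PSME3 held a CCAAT box at -12 to -8 and a gamma-activated site at -230 to -222. Among the windows not shown, those of PSMC1 and PSMD11 held no match, and that of PSMD9 held 4 antioxidant response cores. A match describes the letters of the window and not a bound site. Whether matches go with the direction of a gene was not tested.

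The 7 alpha ring genes differed little between the groups. PSMA7, the most abundant proteasome gene in these cells, was at 165 and 172 FPKM in the knockdown samples and 161 and 170 FPKM in the controls. PSMA5, the least abundant of the ring, averaged 46.1 ± 0.793 FPKM in knockdown and 44.9 ± 0.966 FPKM in the controls. The rings hold 1 copy of each alpha subunit, yet the transcript levels spanned 3.67-fold. PSMA4 (90.0 and 72.3 FPKM in knockdown, 83.2 and 64.4 FPKM in the controls) and PSMA6 (73.4 and 70.4 FPKM in knockdown, 80.4 and 72.1 FPKM in the controls) had the smallest p of the 7, with overlapping groups. Over the ring the log2 fold changes ran from -0.08 to 0.14, and the 95% interval was narrowest for PSMA1 (-0.22 to 0.22) and widest for PSMA4 (-0.34 to 0.61). The ring's median of -0.00306 turned positive under quantile normalization (0.0215) and under median-ratio scaling (0.000691).

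Among the 7 constitutive beta ring genes PSMB2 stood apart. PSMB2, a structural beta subunit without a cutting site (ENSG00000126067.11, chromosome 1, 36065145 to 36107445, minus strand, GRCh37), was at 63.4 and 67.7 FPKM in the knockdown samples and 46.1 and 50.1 FPKM in the controls. Both knockdown samples were above both controls, and the means differed 1.36-fold. Its log2 fold change of 0.44 (SE 0.0974, 95% interval 0.18 to 0.70) had the smallest p of all members and missed the threshold (limma, adjusted p = 0.608). The other structural subunits were PSMB1 (146 and 164 FPKM in knockdown, 149 and 151 FPKM in the controls), PSMB3 and PSMB4, with log2 fold changes between -0.06 and 0.04.

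The catalytic subunits of the constitutive core were close between the groups. PSMB5, which carries the chymotrypsin-like site, was at 44.0 and 47.2 FPKM in the knockdown samples and 52.6 and 47.1 FPKM in the controls. Its groups overlapped, with a log2 fold change of -0.12 (95% interval -0.40 to 0.15). PSMB6, with the caspase-like site, was at 90.9 and 93.1 FPKM in knockdown and 88.0 and 90.1 FPKM in the controls. PSMB7, with the trypsin-like site, was at 139 and 142 FPKM in knockdown and 132 and 135 FPKM in the controls. For PSMB6 and PSMB7 both knockdown samples exceeded both controls by a small margin, with log2 fold changes of 0.05 and 0.07 and 95% intervals that reach from -0.18 to 0.27 and from -0.15 to 0.30.

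All 3 immunosubunit genes had lower means in the knockdown samples, with log2 fold changes from -0.37 to -0.33. Below 0 lay 49.8% of all tested genes and 55.6% of those at least as abundant as PSMG4. None of the 3 immunosubunit genes passed the adjusted threshold over all genes. PSMB8, which takes the place of PSMB5, lies on chromosome 6 (ENSG00000204264.8, 32808494 to 32812480 on the minus strand, GRCh37). It was at 35.6 and 36.1 FPKM in the knockdown samples, against 50.1 and 42.5 FPKM in the controls (log2 fold change -0.35, SE 0.115, limma, adjusted p = 0.797). PSMB10, the counterpart of PSMB7 on chromosome 16 (ENSG00000205220.11, 67968405 to 67970990 on the minus strand), was at 11.1 FPKM in both knockdown samples, against 14.5 and 13.9 FPKM in the controls (log2 fold change -0.33, SE 0.109, limma, adjusted p = 0.801). For both genes the knockdown samples lay below the controls without overlap. That order was found for 17.1% of all tested genes and 23.1% of those at least as abundant as PSMG4. PSMB9, the counterpart of PSMB6 (ENSG00000240065.7, chromosome 6, 32811913 to 32827362 on the plus strand), was at 17.1 and 13.4 FPKM in the knockdown samples and 26.2 and 14.9 FPKM in the controls, so its groups overlapped. Control 1 set its difference: without control 1 the log2 fold change of PSMB9 was 0.017, against -0.37 with all samples, and without control 2 it was -0.75. PSMB8 and PSMB9 overlap by 568 bp on opposite strands. The interval of PSMB9 also spans the whole of TAP1 (32812986 to 32821755 on the minus strand). The sources used here do not say whether fragments were assigned by strand. In bulk samples such as these, fewer cells that express a gene and less RNA per cell cannot be told apart.

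Set against their constitutive counterparts, the immunosubunits made up 18.9% and 17.7% of the catalytic subunit FPKM in the knockdown samples and 24.97% and 20.8% in the controls. The groups did not overlap, at means of 18.3% ± 0.873 and 22.9% ± 2.95. Most of the spread was in the controls, and the difference of -4.59 percentage points was -2.51 without control 1 and -6.67 without control 2. With 2 samples a group the smallest p of an exact permutation test is 0.333, so the share was not tested. The summed FPKM of the immunosubunits was 63.8 and 60.6 in knockdown and 90.7 and 71.3 in the controls, while that of PSMB5, PSMB6 and PSMB7 was 274 and 282 in knockdown and 273 and 272 in the controls. By pair, PSMB8 held 44.8% and 43.4% of the sum with PSMB5 in knockdown and 48.8% and 47.5% in the controls. PSMB10 held 7.39% and 7.25% of the sum with PSMB7 in knockdown and 9.88% and 9.34% in the controls. PSMB9 held 15.8% and 12.6% of the sum with PSMB6 in knockdown and 22.9% and 14.2% in the controls, with overlap.

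**Figure D3:**
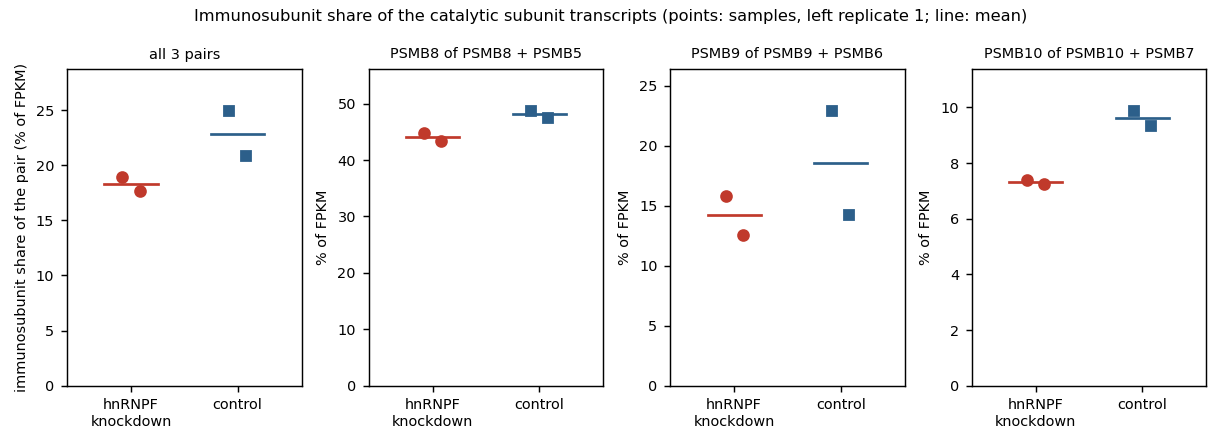
Immunosubunit share of the catalytic subunit FPKM (%) in hnRNPF knockdown and control samples, for the 3 pairs together and for each pair, with points for samples and lines for means; the axes start at 0. The share was 18.9% and 17.7% in knockdown and 24.97% and 20.8% in the controls, and for the PSMB9 pair alone the groups overlap.

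Genes that respond to interferon gamma together with the immunosubunits were read beside them. Of 11 such interferon and class I genes, 0 were under an unadjusted p of 0.05 in limma, 5 had a log2 fold change above 0 and 6 below, with a median of -0.06. IRF1, a transcription factor of the interferon response, was at 9.41 and 7.66 FPKM in knockdown and 9.80 and 5.95 FPKM in the controls. TAP1, the peptide transporter gene that shares its promoter region with PSMB9, was at 24.7 and 25.5 FPKM in knockdown and 26.6 and 23.5 FPKM in the controls. The smallest p were those of the class I genes HLA-E (52.2 and 52.1 FPKM in knockdown, 67.5 and 55.7 FPKM in the controls) and HLA-C (85.3 and 92.9 FPKM in knockdown, 98.9 and 94.0 FPKM in the controls). Control 1 was the highest of the 4 samples for 9 of these 11 genes, as it was for all of PSMB8, PSMB9, PSMB10, PSME1 and PSME2. Over all 13110 tested genes control 1 was the highest sample for 37.3%. Of the 10 mammary epithelial markers, KRT18 (121 and 146 FPKM in knockdown, 172 and 177 FPKM in the controls, log2 fold change -0.39) and EPCAM (38.6 and 38.9 FPKM in knockdown, 56.4 and 45.9 FPKM in the controls, log2 fold change -0.38) were below both controls. KRT17, KRT8 and TP63 of the same list lay above both controls, with log2 fold changes of 0.67, 0.14 and 0.37, and the other 5 overlapped. Of all tested genes, 17.5% lay above both controls and 17.1% below. No marker of the list passed the adjusted threshold. The part of these markers, and of the level of control 1, in the immunosubunit difference was not tested.

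In the ATPase ring, which unfolds substrates, PSMC1 was the lower one and the other 5 genes lay within 0.06 of 0 on the log2 scale. PSMC1 (ENSG00000100764.13, chromosome 14, 90722839 to 90741773 on the plus strand, GRCh37) was at 26.6 and 25.1 FPKM in the knockdown samples, against 30.9 and 35.9 FPKM in the controls. The groups did not overlap, and the log2 fold change was -0.36 (SE 0.117, 95% interval -0.67 to -0.046, limma, adjusted p = 0.797). PSMC1 has many processed copies: 13 rows of the table carry its pseudogene names and together held 16.0 and 16.5 FPKM in knockdown and 15.2 and 15.8 FPKM in the controls. Summed with them, PSMC1 was at 42.6 and 41.6 FPKM in knockdown and 46.2 and 51.7 FPKM in the controls, with a log2 fold change of -0.21. PSMC3, the most abundant ATPase, was at 64.6 and 74.5 FPKM in knockdown and 66.9 and 70.9 FPKM in the controls, and PSMC6 at 35.9 and 35.0 FPKM in knockdown and 39.0 and 34.9 FPKM in the controls, both with overlap.

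Of the 14 PSMD genes, 10 had a log2 fold change below 0 and 4 above, with a median of -0.03, and 11 lay within 0.1 of 0. Below 0 lay 49.8% of all tested genes and 55.6% of those at least as abundant as PSMG4. Within 0.1 of 0 lay 43.4% and 46.3% of them. PSMD11, a scaffold of the lid (ENSG00000108671.9, chromosome 17, 30771279 to 30810336 on the plus strand, GRCh37), was at 49.0 and 44.1 FPKM in the knockdown samples, against 37.9 and 37.5 FPKM in the controls. Both knockdown samples were above both controls, 1.24-fold by means, with a log2 fold change of 0.30 (SE 0.0992, limma, adjusted p = 0.801). PSMD2, a large scaffold of the base and the most abundant of the 14, was at 154 and 136 FPKM in knockdown and 144 and 151 FPKM in the controls. The deubiquitinase PSMD14, which removes ubiquitin chains as the substrate enters, was at 67.8 and 70.6 FPKM in knockdown and 69.1 and 68.7 FPKM in the controls. The ubiquitin receptor PSMD4 was at 60.7 and 62.1 FPKM in knockdown and 66.0 and 64.4 FPKM in the controls, below the controls by a log2 fold change of -0.09.

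PSMD5, PSMD9 and PSMD10 carry subunit names but act as chaperones in the assembly of the base. PSMD9 had the lowest log2 fold change of all members, -0.44, at 12.7 and 15.6 FPKM in the knockdown samples and 24.3 and 15.7 FPKM in the controls. Its groups are separated by a narrow margin, and control 1 sets the size: the log2 fold change was -0.15 without control 1 and -0.74 without control 2. Summed with WDR66, which overlaps it on the same strand, it was -0.23. PSMD5 was at 22.8 and 19.0 FPKM in knockdown and 24.0 and 20.8 FPKM in the controls, and PSMD10 at 21.1 and 21.6 FPKM in knockdown and 21.9 and 20.8 FPKM in the controls, both with overlap.

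Of the 5 genes of alternative caps and of the inhibitor, 1 had a log2 fold change above 0 and 4 below, and none passed the adjusted threshold. Below 0 lay 49.8% of all tested genes and 55.6% of those at least as abundant as PSMG4. PSME3, the subunit of the nuclear activator cap (ENSG00000131467.10, chromosome 17, 40976402 to 40995775 on the plus strand, GRCh37), had the largest difference of any member. It was at 56.8 and 47.7 FPKM in the knockdown samples and at 19.6 and 35.6 FPKM in the controls, 1.89-fold by means. Both knockdown samples were above both controls, and the log2 fold change of 0.95 had a wide error (SE 0.301, 95% interval 0.15 to 1.75, limma, adjusted p = 0.789). The controls differed from each other by more than the knockdown samples did, and the log2 fold change was 0.53 without control 1 and 1.365 without control 2. BECN1 overlaps PSME3 on the opposite strand and was at 30.6 and 34.8 FPKM in knockdown and 24.2 and 37.3 FPKM in the controls, so it was also lowest in control 1.

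PSME1 and PSME2, whose products form the interferon-inducible activator cap of the cytosol, lie 4395 bp apart on chromosome 14. PSME1 was at 57.7 and 56.3 FPKM in knockdown and 75.0 and 58.0 FPKM in the controls, and PSME2 at 41.5 and 39.7 FPKM in knockdown and 45.9 and 37.4 FPKM in the controls. The log2 fold change of PSME1, -0.21, was -0.025 without control 1 and -0.39 without control 2. PSME3 stood at 1.14 and 0.994 times the mean of PSME1 and PSME2 in the knockdown samples and at 0.324 and 0.747 times in the controls. PSME4, a large activator of the nucleus, was at 35.5 and 31.2 FPKM in knockdown and 33.2 and 34.0 FPKM in the controls. PSMF1, an inhibitor of the core particle in vitro, was at 28.9 and 37.6 FPKM in knockdown and 37.3 and 37.6 FPKM in the controls, with only knockdown 1 low.

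**Figure D4:**
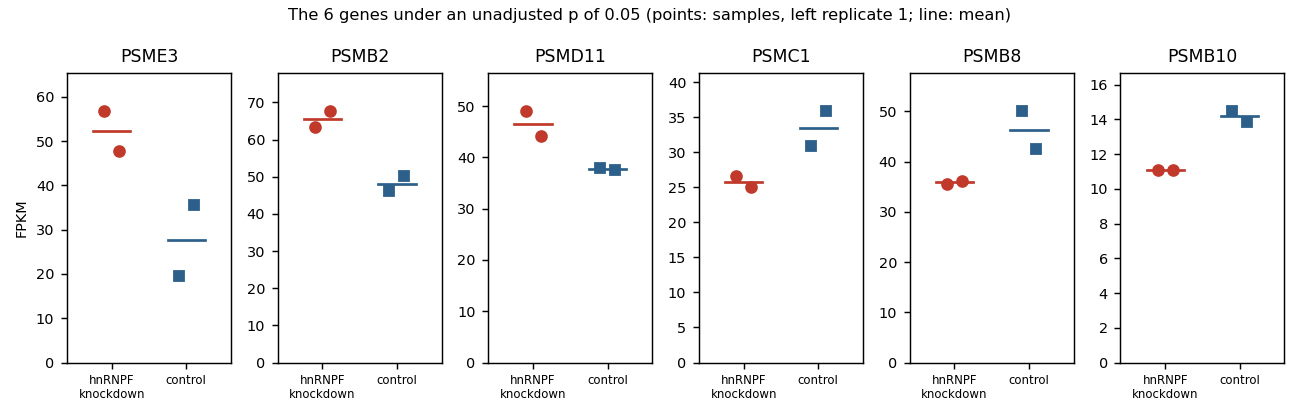
FPKM of the 6 proteasome subunit genes under an unadjusted p of 0.05 in limma, per sample (points) with the group mean (line), hnRNPF knockdown left of control; the axes start at 0. PSME3, PSMB2 and PSMD11 were higher in both knockdown samples and PSMC1, PSMB8 and PSMB10 lower, and none of the 6 passed the adjusted threshold.

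The 4 assembly chaperones of the alpha ring, PSMG1 to PSMG4, had lower means in knockdown in 4 of 4 cases, with log2 fold changes from -0.21 to -0.17 (49.8% of all tested genes were below 0), and none was under an unadjusted p of 0.05. PSMG1, which pairs with PSMG2, was tight within each group: 40.6 and 40.5 FPKM in the knockdown samples, against 46.9 and 47.0 FPKM in the controls, with no overlap (log2 fold change -0.21, SE 0.0852, 95% interval -0.43 to 0.017, limma, adjusted p = 0.833). PSMG1 lay just outside the unadjusted threshold. PSMG2 was at 37.0 and 29.7 FPKM in knockdown and 40.9 and 34.8 FPKM in the controls, and overlapped. Its log2 fold change of -0.18 was -0.027 without knockdown 2, -0.068 without control 1, -0.33 without knockdown 1 and -0.29 without control 2. The other pair, PSMG3 (24.2 and 22.5 FPKM in knockdown, 32.3 and 21.4 FPKM in the controls) and PSMG4 (12.3 and 11.1 FPKM in knockdown, 14.7 and 11.99 FPKM in the controls), differed more between the controls than between the group means. POMP, the chaperone that completes the beta ring, was at 65.5 and 76.2 FPKM in knockdown and 61.6 and 69.4 FPKM in the controls.

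**Figure D5:**
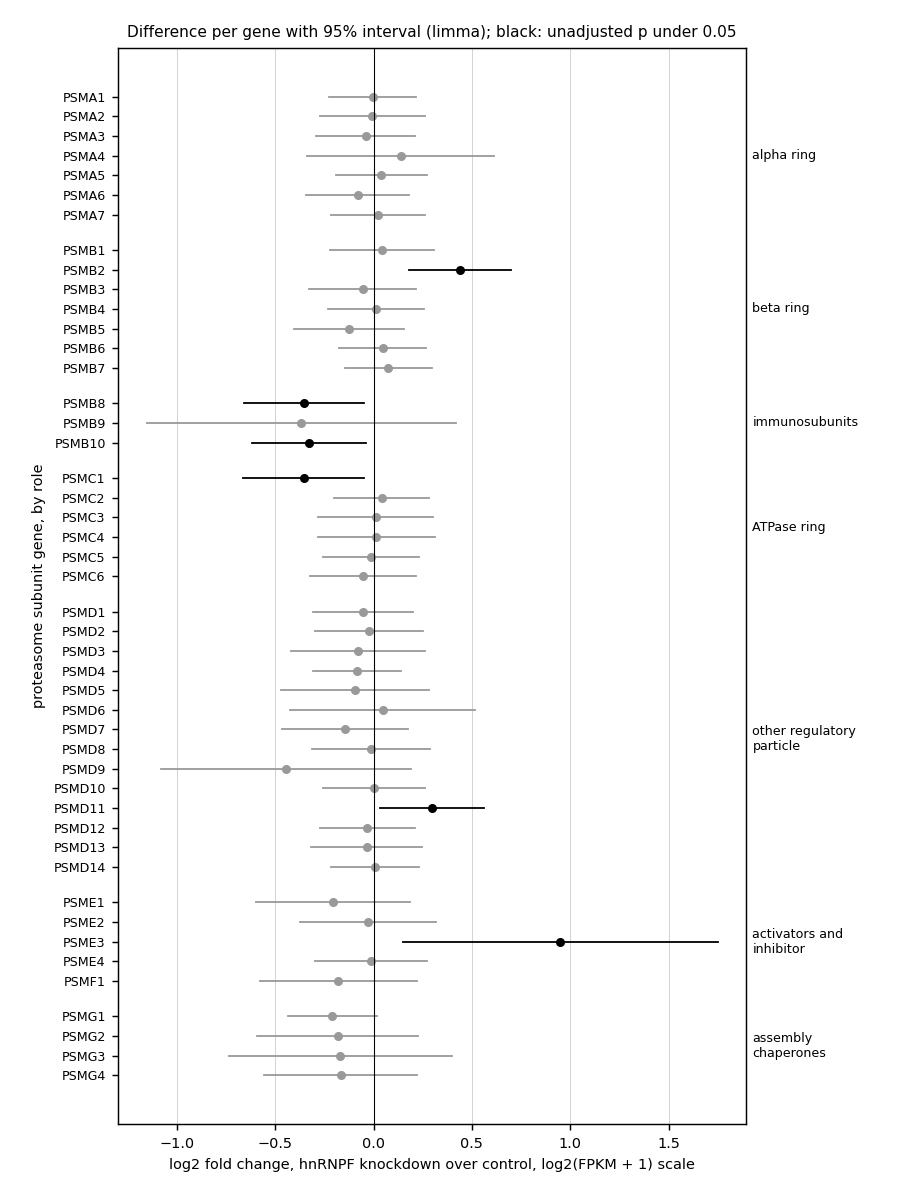
Log2 fold change (hnRNPF knockdown over control, log2(FPKM + 1) scale) of the 46 tested proteasome subunit genes with the 95% interval from limma, grouped by role; black marks an unadjusted p under 0.05. The intervals of 40 genes include 0, and those of PSME3, PSMB2, PSMD11, PSMB8, PSMB10 and PSMC1 do not.

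Partners of the proteasome outside the PSM symbols were followed as a list of 30 genes. In limma 0 of them passed the adjusted threshold, 2 were lower (6.67%, against 3.02% of all tested genes) and 0 higher at an unadjusted p under 0.05, and the median log2 fold change was 0.02. The list's lower genes were NFE2L2 and PAAF1. NFE2L2, which encodes NRF2, the transcription factor of the antioxidant response, was at 11.3 and 10.03 FPKM in the knockdown samples, against 23.9 and 19.7 FPKM in the controls (log2 fold change -0.96, SE 0.145, limma, adjusted p = 0.479). PAAF1, a chaperone of the ATPase base, was at 10.5 and 11.0 FPKM in the knockdown samples, against 15.2 and 13.9 FPKM in the controls (log2 fold change -0.41, SE 0.117, limma, adjusted p = 0.765). NFE2L1, the related factor that raises proteasome genes when the proteasome is impaired, was at 46.6 and 46.8 FPKM in knockdown, between the control values of 68.0 and 25.6 FPKM. The ubiquitin receptor ADRM1 was at 85.8 and 80.7 FPKM in knockdown and 76.2 and 83.0 FPKM in the controls, and the small lid subunit SEM1 (listed as SHFM1) at 40.7 and 45.4 FPKM in knockdown and 43.9 and 42.9 FPKM in the controls.

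The 48 genes lie on 17 chromosomes, with 8 on chromosome 14 and 7 on chromosome 17. Among members within 150 kb of each other, the tested genes PSMB8 and PSMB9, and PSME1 and PSME2, were on the same side of 0. PSMB4 and PSMD4, 132055 bp apart on chromosome 1, had log2 fold changes of 0.01 and -0.09. On chromosome 17, PSME3 and PSMD11 were among the genes higher in knockdown, while PSMB3 and PSMD12 had log2 fold changes of -0.06 and -0.03.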

How the data were processed

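RNA from 2 hnRNPF knockdown and 2 control samples of HMLE cells was compared. Trizol was used for extraction, per the labels' protocols, and stranded paired-end TruSeq libraries were made after polyA selection. The authors deposited FPKM values, 1 column per sample per the file headers, with a symbol, an Ensembl identifier and a locus per row. GRCh37, Cuffdiff 2.2.1 and STAR 2.5.3a are named, with no roles, per the submitters' processing notes. Neither the annotation release nor the use of strand in counting is given in the sources used here. An FPKM depends on how fragments were divided among overlapping genes, processed copies and isoforms of different length.

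Genes whose mean reached 1 FPKM were tested on log2(FPKM + 1) with limma 3.58.1 in R 4.3.3 (intensity trend, no covariate, two-sided, Benjamini-Hochberg over 13110 genes, threshold 0.05). Log2 differences on this scale are smaller than the true ones for low genes; values called fold are ratios of mean FPKM. In 10 simulated tables of 13110 genes the fit called 58.2% of the genes changed 2-fold, 86% of those changed 4-fold and 99.8% of those changed 8-fold. Between 37.9% and 41.3% of the low values of single-exon genes were whole multiples, within 0.02, of the step taken as 1 fragment, so no count test was run.

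The members and lists were chosen with earlier results of these data known. Named genes were those with the smallest p and the highest level of each class, all catalytic subunits, all members under an unadjusted p of 0.05, and the corresponding genes of the lists; PSMA1, PSMA5, PSMD4, PSMD5, PSMD10, PSMD14, PSME2, PSME4, PSMF1, PSMB3, PSMB4, PSMD12, PSMG3 and PSMG4 were added by role, and the epithelial and fibroblast markers by their direction or level, after their values were seen. Alternatives were other pseudocounts, filters and scalings, no trend, a replicate block, leaving out each sample and summing rows. Sums with overlapping genes and with pseudogene rows were chosen after seeing the data. GENCODE 29 supplied lengths of single-exon genes and RefSeq the promoter windows, both on GRCh38; gene coordinates are those of the table. Sequences and figures were handled in Python 3.11.15 (pandas 2.3.3, matplotlib 3.10.9).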

Additional observations from a re-analysis of the deposited data

How the results depend on the processing

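The log2 fold change of HNRNPF kept its direction, but its call was lost with no filter (-3.055, limma, adjusted p = 0.259), without the intensity trend (-3.055, adjusted p = 0.0995) and with the replicate number as a block (-3.055, adjusted p = 0.164). Leaving out 1 sample, where a lone sample is assumed to vary like the other group, gave -3.13 to -2.98, with an adjusted p of 0.290 without control 1 and 0.103 without control 2. No proteasome gene passed the adjusted threshold under any of the 13 settings. The 6 genes under an unadjusted p of 0.05 were 3 without the trend (PSMB2, PSMB10 and PSME3) and 1 to 7 when 1 sample was left out. PSMB2 was the 1 gene under 0.05 in each of these settings. Of all tested genes, 6.08% were under 0.05 in the main fit and 6.02% without the trend. The counts of members on leaving out 1 sample rest on an assumed spread of the lone sample, so they cannot be read against such shares. The count of genes below both controls was 15 to 21 when 1 sample was left out, since fewer values must then be ordered. The members' median of -0.0313 was -0.00909 with quantile normalization. It was -0.0163 without knockdown 1, -0.0408 without knockdown 2, -0.0183 without control 1 and -0.0400 without control 2. In the same order, the median of all tested genes was -0.0025, -0.0566, 0.0612, 0.0615 and -0.0631. Whether the members' median lay below or above that of all genes thus depended on the sample left out. Of 281 values of the 21 named members, 11 changed sign, all on leaving out 1 sample. Those ranges were -0.0447 to 0.320 for PSMA4, -0.0182 to 0.0639 for PSMA7, -0.0400 to 0.124 for PSMB1, -0.752 to 0.0170 for PSMB9, -0.0906 to 0.111 for PSMC3, -0.132 to 0.0219 for PSMC6 and -0.110 to 0.0651 for PSMD2. The labels do not say that a replicate number marks a shared culture or day. Same-numbered samples deviated together (r = 0.39 over 13110 genes), and with the block 6 members were again under 0.05, while the share of all genes under 0.05 was 13.7%. The cause of these changes was not tested. In simulated tables of this size 58.2% of 2-fold changes (FPKM + 1 scale) were called, and smaller changes were not simulated. Those tables held many changed genes and independent noise, so that share does not give the power for the members.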
